A study of Mus musculus with 16 samples.

Results

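The liver identity transcription factors examined here were 9 genes, Hnf4a, Foxa1, Foxa2, Foxa3, Cebpa, Cebpb, Onecut1, Prox1 and Nr5a2, of 55421 gene IDs in the tables. They were chosen by name, as regulators that define hepatocytes, by a rule that used no measured value, though with earlier results of these data known. All 9 passed the filter on low counts (a total of 10 or more) and so were among the 23018 genes tested.

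The libraries came from livers of male C57BL/6 mice, taken before and after regeneration from control and from HIRA KO mice, with 4 libraries in each of the 4 groups. HIRA is a chaperone that deposits the histone variant H3.3 outside of DNA replication. In HIRA KO it was removed either with AAV8 Tbg-Cre in HIRA fl/fl mice or with AAV8-Tbg-saCAS9/U6-sgRNA-HIRA in wildtype mice. Controls were wildtype mice given AAV8 Tbg-Cre or AAV8-Tbg-saCAS9/U6-sgRNA-Rosa26, so every mouse, controls included, carried a virus that acts from the hepatocyte promoter Tbg. Per the labels, both approaches gave 2 of the 4 libraries in every group. Virus was given at 6 months of age. The lobes resected 4 weeks later were the samples before regeneration, and the liver that had regrown 5 days after that was the sample after it, so lobe, collection and time changed together and cannot be told apart. The libraries are named here by the running number of their column, 1 to 4. Tissue before and after regeneration came from the same mice, but no label says whether a number marks the same mouse at both times, or which approach it had. Whole liver was sequenced, and Tbg acts in hepatocytes only. Fewer cells of a type and less RNA per cell cannot be told apart in such samples.

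Hepatocyte identity is held by a small set of transcription factors that bind each other's genes and many of the same enhancers. The FOXA proteins (forkhead box) are pioneer factors that bind nucleosomal DNA, HNF4A and NR5A2 (LRH-1) are nuclear receptors, CEBPA and CEBPB are basic leucine zipper proteins, and ONECUT1 (HNF6) and PROX1 are homeobox proteins. In the liver these factors maintain the genes of plasma proteins, gluconeogenesis, bile acid and lipid metabolism. CEBPA is known to restrain proliferation, whereas CEBPB takes part in the acute-phase and regenerative responses.

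Of the libraries as a whole, total counts ran from 15103059 to 21738619, with a median of 18337571. Hira itself ranged from 4.99 to 6.29 CPM (counts scaled by TMM library sizes) over the 8 control libraries and from 3.04 to 4.56 over the 8 HIRA KO libraries. The groups did not overlap at either time, but Hira did not pass the test, with log2 fold changes of -0.70 ± 0.17 before and -0.69 ± 0.17 after regeneration (SE, edgeR adjusted p 0.129 and 0.0666). On the second principal component, which held 26.5% of the variance over 13176 genes, HIRA KO libraries 1 and 2 before (-47.4 and -36.6) and 1 and 2 after regeneration (-40.2 and -36.2) stood apart from the other 12. Results are given with and without these 4 libraries where they rest on them. Their markers of stellate cells and fibroblasts (8 genes) summed to 676 and 487 CPM before regeneration, against 227 to 268 in the other 6 libraries of that time. After it they summed to 486 and 378 CPM, against 178 to 418 in the other 6. Before regeneration their cholangiocyte markers (8 genes) summed to 167 and 119 CPM, against 69.4 to 98.6 in the other 6, and their cell-cycle markers (8 genes) to 24.7 and 17.9 CPM, against 5.09 to 12.1. The tissue label held, with the 8 hepatocyte markers summing to between 109306 and 167135 CPM in every library. Before regeneration the highest of these sums, 167135 and 149597 CPM, were those of HIRA KO libraries 1 and 2.

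The upstream promoters of 3 factors are shown. Nr5a2 and Cebpa are the factors called by edgeR in a comparison below, though most other settings lost the calls of Nr5a2. An antisense transcript covers the upstream start of Hnf4a. Each is the sequence of the gene's own strand in the 250 bases before a start in RefSeq (GRCm38.p6), without the bases that lie in exons of the same gene. Capitals mark a match to 1 of 5 core motifs searched on both strands.
Nr5a2, upstream start, chr1:136960449-136960698, minus strand: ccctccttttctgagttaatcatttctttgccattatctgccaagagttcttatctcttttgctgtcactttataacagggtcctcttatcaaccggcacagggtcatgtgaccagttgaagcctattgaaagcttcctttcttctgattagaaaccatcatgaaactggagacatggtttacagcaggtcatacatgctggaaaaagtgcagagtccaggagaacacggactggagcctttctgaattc
Nr5a2, downstream start, chr1:136953631-136953880, minus strand: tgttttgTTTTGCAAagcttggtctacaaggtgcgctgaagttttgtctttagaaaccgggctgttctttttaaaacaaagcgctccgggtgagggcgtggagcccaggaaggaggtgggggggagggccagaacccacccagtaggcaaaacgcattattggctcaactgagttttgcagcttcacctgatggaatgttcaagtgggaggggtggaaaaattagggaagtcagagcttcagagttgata
Cebpa, chr7:35119043-35119292, plus strand: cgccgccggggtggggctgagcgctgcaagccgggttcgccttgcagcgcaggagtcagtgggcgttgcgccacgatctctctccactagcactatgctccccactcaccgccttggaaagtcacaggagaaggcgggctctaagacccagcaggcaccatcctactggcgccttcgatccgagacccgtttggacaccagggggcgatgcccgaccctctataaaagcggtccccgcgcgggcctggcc
Hnf4a, upstream start, chr2:163506607-163506807, plus strand: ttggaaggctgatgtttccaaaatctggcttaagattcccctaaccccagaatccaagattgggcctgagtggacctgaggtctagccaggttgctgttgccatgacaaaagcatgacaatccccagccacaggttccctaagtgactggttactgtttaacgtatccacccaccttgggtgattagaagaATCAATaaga
Hnf4a, downstream start, chr2:163546943-163547154, plus strand: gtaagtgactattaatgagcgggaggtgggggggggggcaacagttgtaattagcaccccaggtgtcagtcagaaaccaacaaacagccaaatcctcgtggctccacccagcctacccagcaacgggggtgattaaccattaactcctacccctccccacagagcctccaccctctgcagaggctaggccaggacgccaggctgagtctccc

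On mm10, Nr5a2 (ENSMUSG00000026398.14) lies at chr1:136842571-136960448 on the minus strand, Cebpa (ENSMUSG00000034957.10) at chr7:35119293-35121928 on the plus strand and Hnf4a (ENSMUSG00000017950.16) at chr2:163506808-163572910 on the plus strand. Foxa1 is on chromosome 12, Foxa2 and Cebpb on 2, Foxa3 on 7, Onecut1 on 9 and Prox1 on 1. The windows lie upstream of these genes or of an inner start, outside their exons. All 9 factors had a promoter in the table, with 14 starts in all. The ONECUT1 motif ATCAAT matched 2 of these 14 windows (the upstream start of Hnf4a, 59 bases before it, and a start of Foxa2, 213 bases before it on the opposite strand), and it matched 6.72% of 32851 promoters of all genes. The C/EBP motif TTGCNNAA matched 1 window, at the downstream start of Nr5a2, where it lay 243 bases before the start on the opposite strand, and 9.56% of all promoters. The FOXA motif TGTTTAC matched 1 window, that of Foxa1, 141 bases before its start on the opposite strand, and 3.17% of all promoters. The HNF4A motif CAAAGTCCA (0.384% of all promoters) and the NR5A2 motif CAAGGTCA (1.33%) matched none of the 14. The 2 Nr5a2 windows differed in that only the downstream one held a match. For 10 of the 14 windows, the bases just after the start occurred within a GENCODE transcript of the gene, which checks the strand but not the start. The downstream window of Hnf4a was not among these. The GC content of the printed windows ran from 43.2% upstream of Nr5a2 to 66.4% at Cebpa.

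In these livers the 9 factors differed widely in level. FPKM, as deposited, divides fragments by both the length of the transcript and the depth, and allowed genes of different length to be compared. Over the 16 libraries mean FPKM was 118 for Hnf4a, 111 for Cebpa and 91.9 for Cebpb, and the ranges of these 3 overlapped. Foxa3 followed at 25.4 FPKM and Foxa2 at 12.9 FPKM. Nr5a2 stood at 10.0, Prox1 at 8.47, Onecut1 at 5.61 and Foxa1 at 5.02 FPKM. In each of the 4 groups, the ranges of the 3 highest factors lay above those of all the others, and Foxa3 came next. In control after regeneration Hnf4a (112 to 135 FPKM) lay above Cebpa (49.7 to 104 FPKM), whereas before regeneration in control Cebpa (133 to 141 FPKM) and Hnf4a (112 to 138 FPKM) overlapped. CPM divided by the length of the union of exons gave 2.83 for Onecut1, so that its FPKM was 1.98 times as large, and 0.888 to 1.19 times for the other 8. A long noncoding RNA, Gm20649, shares exons and strand with Onecut1 and was listed at 0 or 1 counts per library.

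**Figure D1:**
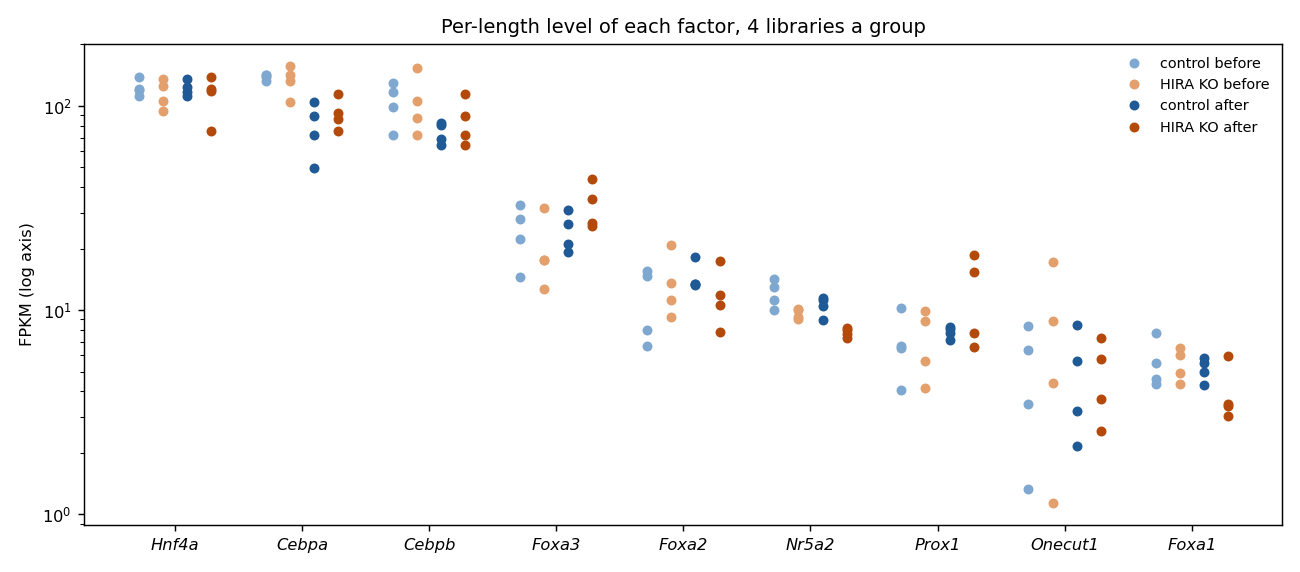
FPKM of each factor (log axis) in the 16 libraries, ordered by mean, with 1 point per library and 4 libraries in each colour-coded group. Hnf4a, Cebpa and Cebpb lie at the top in every group, and Onecut1 is the most spread.

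Spread between the libraries of a group set what could be seen for each factor. Each group held both deletion approaches, so a difference between them is part of this spread and could not be separated. The coefficient of variation of CPM within a group was between 5.90% and 13.2% for Nr5a2, whose upper bound was the lowest of the 9. Onecut1 was the widest, with 44.4% to 90.2% within a group and a 15.7-fold range over the 16 libraries. The other 7 lay between 3.24% (Cebpa in control before regeneration) and 45.7% (Prox1 in HIRA KO after regeneration).

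**Figure D2:**
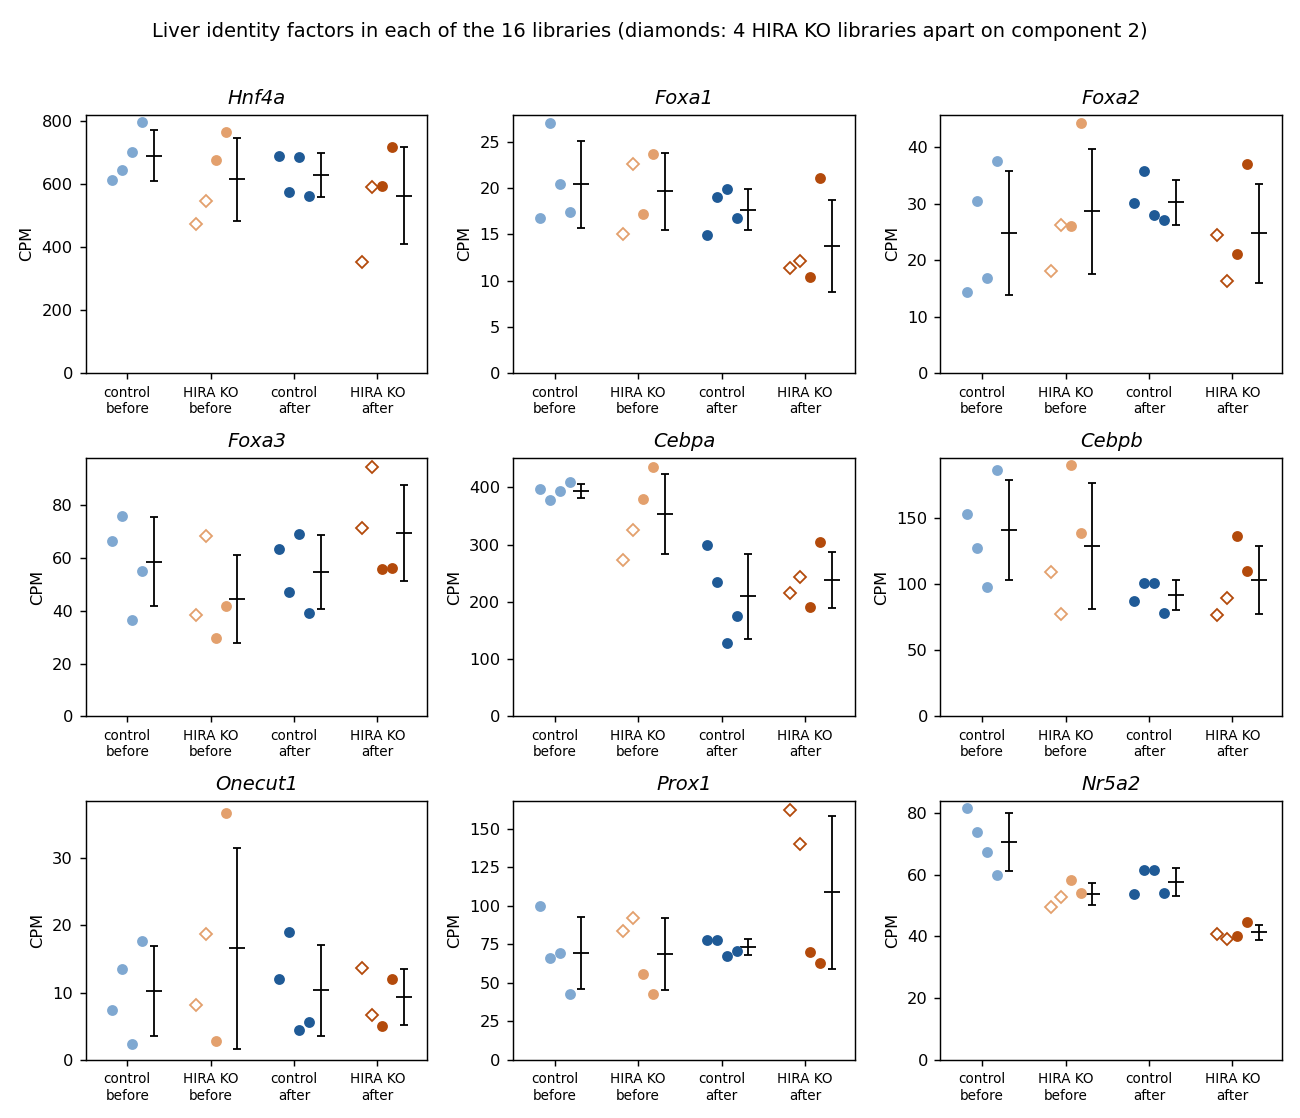
CPM of the 9 factors in each library, with 4 libraries a group, and the mean ± SD of each group as a black bar. Open diamonds are the 4 HIRA KO libraries that stood apart. Nr5a2 in HIRA KO lies below control at both times, Cebpa falls in control after regeneration, and Prox1 is high in 2 diamonds.

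Whether loss of HIRA altered these factors in resting liver was asked by HIRA KO against control before regeneration. By edgeR's quasi-likelihood test, with p-values adjusted over all genes (Benjamini-Hochberg), none of the 9 passed (0 called, 1 at an unadjusted p under 0.05, and 1 by DESeq2), where 0.0391% of all genes did, 0.00434% lower and 0.0348% higher, and 1.63% by DESeq2. Of their log2 fold changes, 7 were below and 2 above 0, with a median of -0.13 against 0.01 over all genes tested. In 1 factor, Nr5a2, the groups did not overlap, where 8.07% of all genes had no overlap.

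Nr5a2, a receptor that drives bile acid and cholesterol genes, measured 81.7, 73.8, 67.3 and 59.8 CPM in control libraries 1 to 4 before regeneration, and 49.6, 52.9, 58.2 and 54.2 CPM in HIRA KO. Every HIRA KO library lay below every control library, by a narrow margin between the lowest control and the highest HIRA KO. Its log2 fold change was -0.40 ± 0.10 (SE, n = 4 against 4), 76.0% of control, with an adjusted p of 0.153 by edgeR's quasi-likelihood test, and 0.0242 by DESeq2. Without the libraries that stood apart it was -0.33, with an adjusted p of 0.686. In FPKM the groups overlapped (9.01 to 10.1 in HIRA KO and 9.96 to 14.2 in control).

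The remaining 8 factors overlapped between control and HIRA KO before regeneration. Hnf4a, the nuclear receptor at the centre of the hepatocyte network, measured 613, 645, 702 and 797 CPM in control and 473, 544, 674 and 765 CPM in HIRA KO. Its 2 lowest libraries were HIRA KO 1 and 2, which stood apart. On the log2 scale the change was -0.17 ± 0.19, with an adjusted p of 0.761 by edgeR, and without those libraries it was 0.06. Cebpa measured 397, 378, 393 and 409 CPM in control, and 273, 325, 379 and 436 CPM in HIRA KO. Control was tightly grouped here, and the lowest libraries were again HIRA KO 1 and 2. The log2 fold change of Cebpa was -0.16 ± 0.21, with an adjusted p of 0.805 by edgeR, and 0.05 without the libraries apart. These 2 libraries were also those with the highest stellate cell, cholangiocyte and cell-cycle sums of that time. Their sums of hepatocyte markers, 167135 and 149597 CPM, were the highest of that time too, against 111124 to 138153 CPM in the others. As a mean of log2(CPM + 1), the hepatocyte markers gave 12.19 and 12.09 there, within the range of the others (12.02 to 12.22). The part of any of these cells in the low Hnf4a and Cebpa was not tested.

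The 3 FOXA genes, whose proteins open liver enhancers, did not share a direction. Log2 fold changes were -0.06 ± 0.22 for Foxa1, 0.21 ± 0.33 for Foxa2 and -0.40 ± 0.28 for Foxa3, none past the test, with edgeR adjusted p of 0.948, 0.837 and 0.577. The longest transcripts of Foxa1 and Foxa2 (GENCODE M21) aligned over 841 bases at 73% identity, and their longest identical run was 38 bases. Cebpb, the acute-phase partner of Cebpa, had a log2 fold change of -0.13 ± 0.25, and Prox1, which restrains metabolic genes and marks lymphatic endothelium too, one of -0.02 ± 0.33. Onecut1, which sets hepatocyte and biliary fate, had the highest estimate, 0.70 ± 0.75. Its highest HIRA KO library, at 36.8 CPM, lay far above the other 3 (2.79 to 18.7 CPM), and the estimate was -0.05 without it. Without the libraries apart the changes were 0.00 for Foxa1, 0.51 for Foxa2, 0.22 for Cebpb, -0.50 for Prox1 and 0.95 for Onecut1, none called.

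After regeneration the same question gave a call for 1 factor. Nr5a2 was lower in HIRA KO, where 0.491% of all genes were called, 0.291% lower and 0.2% higher. Of the other 8 factors, none passed the test (1 of 9 at an unadjusted p under 0.05, and 1 by DESeq2, where DESeq2 called 3.95% of all genes). The median log2 fold change of the 9 was -0.14 against 0.02 over all genes, with 5 below and 4 above 0. Nr5a2 was also the 1 factor without overlap between groups, where 8.1% of all genes had none.

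Nr5a2 measured 53.7, 61.7, 61.4 and 53.9 CPM in control after regeneration, and 40.9, 39.2, 40.3 and 44.8 CPM in HIRA KO. All 4 HIRA KO libraries lay below all 4 controls, and the libraries that stood apart, 1 and 2, lay close to library 3. The log2 fold change was -0.48 ± 0.10, 71.6% of control, with an adjusted p of 0.0464 by edgeR's quasi-likelihood test, close to the threshold. The exact two-sided permutation test of this gene gave 0.0286, unadjusted, the smallest p that 4 against 4 libraries allow. Any gene without overlap gives this p, so it adds nothing to the lack of overlap. DESeq2 gave an adjusted p of 0.00164. The call was lost under 5 of 7 other settings and with any library left out but HIRA KO library 4 after regeneration (adjusted p 0.0296), with log2 fold changes from -0.52 to -0.39 throughout, and without the 4 libraries that stood apart it was -0.44, with an adjusted p of 0.220 by edgeR. With only the groups compared, a setting that lost the call, 0 of 23018 genes were called in all. In FPKM the groups did not overlap either (7.28 to 8.15 in HIRA KO and 8.96 to 11.4 in control). Nr5a2 was thus below control without overlap in CPM at both times, as were 0.647% of all genes. The difference between its HIRA KO effects at the 2 times was -0.09 ± 0.15, with an adjusted p of 0.945 by edgeR.

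**Figure D3:**
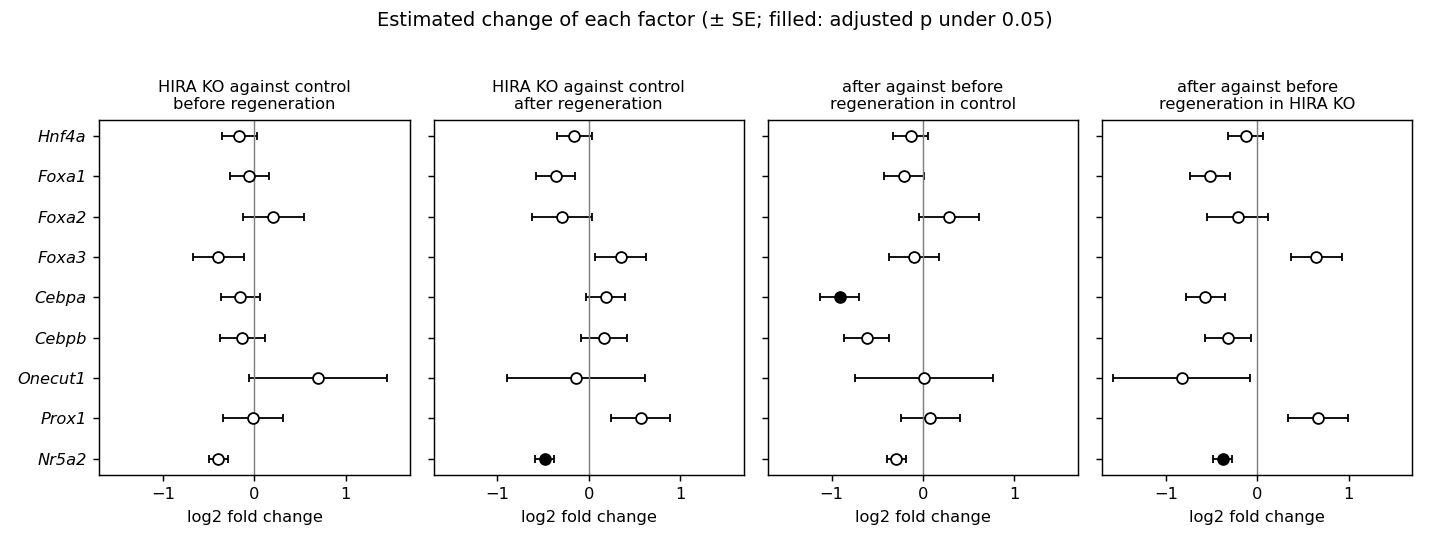
Log2 fold change ± SE of each factor in 4 comparisons. Filled points passed edgeR's test, which are Nr5a2 in HIRA KO against control after regeneration and in HIRA KO after against before, and Cebpa in control after against before.

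Prox1 after regeneration measured 77.7, 77.7, 67.6 and 70.5 CPM in control, and 162, 140.2, 70.1 and 62.7 CPM in HIRA KO. The 2 high libraries were those that stood apart, and the other 2 lay within or just below the range of control. Its log2 fold change was 0.57 ± 0.33, with an adjusted p of 0.426 by edgeR, and -0.14 without the 4 libraries. Markers of lymphatic endothelial cells, which also express Prox1, summed over 4 genes to 86.7 and 68.7 CPM in those 2 libraries. The sums were 56.5 and 46.4 CPM in the other 2, and 40.1 to 69.2 CPM in control. Reln is in this list and also in that of stellate cells and fibroblasts, so the sum is not of lymphatic cells alone. The stellate list summed to 486 and 378 CPM in the same 2 libraries, and to 178 to 418 CPM in the other 6 of that time. Markers of cholangiocytes (8 genes) summed to 154 and 123 CPM in those 2 libraries, and to 95.0 to 136 CPM in the other 6. The part of these cells in the levels of Prox1 was not tested.

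Hnf4a measured 689, 573, 687 and 561 CPM in control after regeneration, and 352, 589.8, 593 and 717 CPM in HIRA KO. The lowest of all was HIRA KO library 1, and the groups overlapped. On the log2 scale the change was -0.16 ± 0.19, with an adjusted p of 0.749 by edgeR, and without the libraries apart it was 0.06. Foxa1 measured 15.0, 19.1, 19.9 and 16.8 CPM in control, and 11.4, 12.2, 10.4 and 21.1 CPM in HIRA KO. Here 3 of 4 HIRA KO libraries lay below every control and library 4 above all. The log2 fold change of Foxa1 was -0.36 ± 0.22, with an adjusted p of 0.443 by edgeR. Foxa2 (-0.29 ± 0.33), Foxa3 (0.35 ± 0.28), Cebpa (0.19 ± 0.21), Cebpb (0.17 ± 0.25) and Onecut1 (-0.14 ± 0.75) overlapped between groups too, with edgeR adjusted p from 0.589 to 0.957. Without the libraries apart, the change after regeneration was -0.17 for Foxa1, -0.06 for Foxa2, 0.42 for Cebpb and -0.28 for Onecut1. Foxa3 then differed by 0.04 after regeneration and by -0.71 before it, and none of these was called.

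An antisense transcript of Hnf4a, Hnf4aos (chr2, 163493807 to 163541720, minus strand), spans the upstream start of Hnf4a whose promoter is printed here, and its own exons overlap none of Hnf4a. It measured 4.92, 5.27, 3.15 and 3.61 CPM in control before regeneration, and 0.21, 0.60, 2.58 and 2.07 CPM in HIRA KO. All 4 HIRA KO libraries lay below control. The 2 that stood apart, which had the highest hepatocyte, stellate cell, cholangiocyte and cell-cycle sums of that time, were the lowest. After regeneration it measured 4.45, 2.29, 2.23 and 0.96 CPM in control, and 0.05, 0.09, 0.81 and 1.39 CPM in HIRA KO, with overlap. The log2 fold changes were -1.65 ± 0.76 and -2.12 ± 0.82, with edgeR adjusted p of 0.377 and 0.224. Without the libraries apart they were -0.87 and -1.17, with adjusted p of 0.821 and 0.413. The library kit keeps strand, but whether counting used it is not stated.

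Regeneration in control liver, 5 days after resection, was followed by a fall of Cebpa. It was the 1 factor of 9 that passed the test (3 at an unadjusted p under 0.05, and 2 by DESeq2), where 10.2% of all genes did, 4.17% lower and 6.04% higher, and 14.3% by DESeq2. It was also the 1 factor whose groups did not overlap, where 19% of all genes did not. The median log2 fold change of the 9 was -0.14 against 0.00 over all genes, with 6 below and 3 above 0.

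Cebpa, which restrains hepatocyte proliferation and maintains metabolic genes, fell from 397, 378, 393 and 409 CPM before regeneration to 299, 235, 129 and 175 CPM after it in control. The highest library after regeneration was well below the lowest before it, and libraries 3 and 4 were the lowest. The log2 fold change was -0.91 ± 0.21 (SE, n = 4 against 4), 53.2% of the level before, with an adjusted p of 0.011 by edgeR's quasi-likelihood test. The call held under all 7 other settings (-0.91 to -0.85, adjusted p from 6.9e-04 to 0.0174) and without any 1 of the 8 libraries (-1.14 to -0.74, adjusted p from 0.0024 to 0.0358). In FPKM the groups did not overlap (133 to 141 before and 49.7 to 104 after). Markers of the cell cycle, 8 of 8 called higher, summed to 5.09 to 12.1 CPM before regeneration in control and, in libraries 1 to 4 after it, to 42.0, 138, 324 and 268 CPM. Control libraries 3 and 4 thus had both the lowest Cebpa and the highest cell-cycle sums of this group. A link between Cebpa and these sums was not tested.

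In HIRA KO, Cebpa measured 273, 325, 379 and 436 CPM before and 216, 243, 191 and 305 CPM after regeneration. The groups overlapped, since HIRA KO library 4 after regeneration was above library 1 before it. Its log2 fold change was -0.57 ± 0.21, with an adjusted p of 0.0918 by edgeR and 0.0536 by DESeq2. It passed without HIRA KO library 4 after regeneration (adjusted p 0.0492). It was -0.72, with an adjusted p of 0.196, without the libraries apart. With the column number as a replicate block it was called (-0.57, adjusted p 0.0355). The fall in control was not shown to differ from that in HIRA KO, the difference being 0.34 ± 0.30 with an adjusted p of 0.855 by edgeR.

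Cebpb, its relative that is induced in acute-phase and regenerative responses, measured 152, 127, 97.4 and 186 CPM in control before regeneration and 87.3, 101, 101 and 78.0 CPM after it. Library 3 before regeneration lay within the range after it, and the other 3 above. On the log2 scale the change was -0.62 ± 0.25, with an adjusted p of 0.139 by edgeR, 0.0336 where only the 2 groups were fitted, and 0.0321 without the HIRA KO libraries apart. In HIRA KO the change was -0.32 ± 0.25, with an adjusted p of 0.445. The gene Tmem189, antisense to Cebpb with exons that overlap it, was at 6.89 to 21.4 CPM over the 16 libraries. Reads of the pair cannot be told apart if strand was not used.

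Regeneration in HIRA KO changed 1 factor of 9 past the test (4 at an unadjusted p under 0.05, and 1 by DESeq2), where 12% of all genes passed, 5.53% lower and 6.48% higher, and 15.9% by DESeq2. With the column number as a replicate block, chosen after seeing the data, 4 factors were called, 3 lower (Nr5a2, Cebpa and Foxa1) and 1 higher (Prox1), where 17.8% of all genes were, 9.09% lower and 8.71% higher. Without the block the called factor was Nr5a2, which fell from 49.6, 52.9, 58.2 and 54.2 CPM to 40.9, 39.2, 40.3 and 44.8 CPM. No library after regeneration reached those before, and it was the 1 factor without overlap, where 16.1% of all genes had none. The log2 fold change was -0.38 ± 0.10, with an adjusted p of 0.0239 by edgeR's quasi-likelihood test. The call was lost under 4 of 7 other settings and when HIRA KO library 3 or 4 before or 2 or 3 after regeneration was left out (adjusted p up to 0.0763), and without the 4 libraries apart it was -0.40, with an adjusted p of 0.0942. In control Nr5a2 changed by -0.29 ± 0.10, with an adjusted p of 0.0817 by edgeR and 0.0320 by DESeq2 (0.0377 by edgeR without control library 4 before regeneration). That library, at 59.8 CPM, lay within the range after regeneration.

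Among the others in HIRA KO, Foxa3 measured 38.4, 68.1, 29.6 and 41.8 CPM before and 71.3, 94.5, 55.9 and 56.3 CPM after regeneration. Its library 2 before lay within the range after, and the other 3 below. Its log2 fold change was 0.64 ± 0.28, with an adjusted p of 0.150 by edgeR, and that without library 2 before regeneration was 0.92, with an adjusted p of 0.0419. In control the change of Foxa3 was -0.10 ± 0.28, and the difference between the genotypes was 0.74 ± 0.39, with an adjusted p of 0.756. Foxa1 changed by -0.52 ± 0.22, with an adjusted p of 0.136 by edgeR, and by -0.80, with 0.0108, without HIRA KO library 4 after regeneration. With the replicate block Foxa1 changed by -0.55 (edgeR adjusted p 0.00782) and Prox1 by 0.61 (0.0113). Prox1 (0.67 ± 0.33), Onecut1 (-0.83 ± 0.75), Foxa2 (-0.21 ± 0.33) and Hnf4a (-0.13 ± 0.19) had adjusted p from 0.207 to 0.738 by edgeR in HIRA KO. Without the libraries apart Foxa1 changed by -0.38, Prox1 by 0.43 and Onecut1 by -1.23, none called. In control Foxa1 (-0.21 ± 0.22), Prox1 (0.08 ± 0.33), Onecut1 (0.01 ± 0.76), Foxa2 (0.29 ± 0.33) and Hnf4a (-0.14 ± 0.19) were not called either. A change in the effect of HIRA KO from before to after regeneration was called for 0 of 9 factors by edgeR (0 at an unadjusted p under 0.05), where 0% of all genes were called. DESeq2 called 0 of 9 as well, where it called 0.291% of all genes. The comparisons share libraries, so they are not independent of each other.

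Prox1os, an antisense gene whose exons overlap those of Prox1, fell with regeneration although Prox1 did not pass the test. It measured 6.07, 5.76, 3.72 and 3.14 CPM before and 2.25, 1.60, 1.04 and 1.06 CPM after regeneration in control. In HIRA KO it went from 1.75, 2.47, 2.52 and 2.63 CPM to 1.54, 1.29, 0.76 and 0.72 CPM. The groups did not overlap in either genotype. The log2 fold changes were -1.66 ± 0.31 and -1.10 ± 0.32, with edgeR adjusted p of 0.00289 and 0.0327. The second call was lost when only the 2 HIRA KO groups were fitted (adjusted p 0.0735) and in 5 of 8 fits with a library left out (up to 0.0984).

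Markers of other cells moved with regeneration as well. Those of Kupffer cells and macrophages rose in 8 of 8 genes in both genotypes, and their sums went from 129.8 to 367 CPM before to 679 to 850 CPM after regeneration in control, and from 187 to 225 CPM to 635 to 980 CPM in HIRA KO. Cell-cycle genes rose in 8 of 8 in HIRA KO too, with sums from 6.66 to 24.7 CPM before and 47.9 to 297 CPM after. Of 6 neutrophil markers, 1 was called higher in each genotype (Mmp8 in control and S100a8 in HIRA KO), and all 6 had log2 fold changes above 0, with medians of 1.15 in control and 1.21 in HIRA KO. Their sums went from 1.55 to 5.77 CPM before to 7.20 to 11.7 CPM after regeneration in control, without overlap, and from 1.00 to 7.13 CPM to 6.79 to 17.5 CPM in HIRA KO. Of 8 hepatocyte markers, 2 were called lower in each genotype, and 7 had log2 fold changes below 0 in each. Their medians were -0.48 in control and -0.38 in HIRA KO, against 0.00 and 0.02 over all genes. None of the matched markers in these lists was at 0 in all libraries. The part of the cells behind these markers in the lower levels of Cebpa and Nr5a2 was not tested.

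Other regulators of hepatocyte genes, 36 of 37 tested, were called in neither comparison of HIRA KO with control by edgeR (0 before and 0 after regeneration). At an unadjusted p under 0.05 there were 5 and 10, and DESeq2 called 0 and 5. Of all genes, edgeR called 0.0391% before and 0.491% after regeneration, and DESeq2 1.63% and 3.95%. With regeneration, 5 fell and 0 rose in control, where 4.17% of all genes fell and 6.04% rose, and 8 fell and 0 rose in HIRA KO, where 5.53% fell and 6.48% rose. Their median log2 fold changes were -0.33 and -0.30, against 0.00 and 0.02 over all genes. Klf15, a glucocorticoid-responsive regulator of amino acid breakdown and gluconeogenesis, fell by 1.44 ± 0.17 on the log2 scale in control (213 ± 23.2 to 78.7 ± 11.1 CPM, SD, n = 4) and by 1.04 ± 0.17 in HIRA KO, with edgeR adjusted p of 1.2e-04 and 8.8e-04. Thrb, a thyroid hormone receptor, fell by 0.33 ± 0.09 and 0.66 ± 0.09, and Stat5b, which relays growth hormone, by 0.49 ± 0.15 and 0.69 ± 0.15. Nfib, of the nuclear factor I family, fell by 0.56 ± 0.13 and Cebpd, a further C/EBP factor, by 0.70 ± 0.22 in control. Ppara, the receptor for fatty acid oxidation, fell by 0.87 ± 0.26 and Mlxipl (ChREBP), which responds to glucose, by 0.86 ± 0.22 in HIRA KO. The calls of Klf15 in both genotypes, Nfib in control and Stat5b in HIRA KO held under all other settings and with any library left out, whereas fits with a library left out lost those of Cebpd and Stat5b in control in 7 of 8, and those of Thrb in control and Ppara in HIRA KO in 5 of 8.

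Of 28 genes that are classical targets of these factors, none was called by HIRA status with edgeR (0 before and 0 after regeneration). At an unadjusted p under 0.05 there were 8 and 5. DESeq2 called 1 and 3, where it called 1.63% and 3.95% of all genes. With regeneration 4 fell and 2 rose in control (4.17% and 6.04% of all genes), and 5 fell and 2 rose in HIRA KO (5.53% and 6.48%), with medians of -0.34 and -0.29. With the replicate block 9 fell and 3 rose in HIRA KO, where 9.09% of all genes fell and 8.71% rose. The glucose-making enzymes fell: G6pc, the last step of glucose release, by 2.86 ± 0.27 in control (1015 ± 325 to 140.0 ± 40.6 CPM) and by 2.15 ± 0.26 in HIRA KO, and Pck1 by 1.68 ± 0.29 and 1.21 ± 0.29. Tat, which breaks down tyrosine, fell by 1.95 ± 0.28 and 1.78 ± 0.27. The acute-phase genes Orm1 and Hp rose, Orm1 by 1.53 ± 0.26 and 1.38 ± 0.25 and Hp by 1.23 ± 0.36 and 1.23 ± 0.36 on the log2 scale. Apoa2, of high-density lipoprotein, fell by 1.14 ± 0.32 in control, and Igfbp1, which binds insulin-like growth factors, by 2.36 ± 0.72 in HIRA KO. Ttr, the carrier of thyroxine, fell by 0.71 ± 0.22 in HIRA KO, but by 0.12, with an adjusted p of 0.773 by edgeR, without the libraries apart, where the calls of Igfbp1 (adjusted p 0.218) and Hp in HIRA KO (0.0594) were lost too. With a library left out, the calls of G6pc, Tat, Pck1 and Orm1 were kept in all fits of both genotypes, whereas those of Hp in control (7 of 8), Apoa2, Igfbp1 and Ttr (6 of 8 each) were mostly lost. Of the 28 targets 5 are also among the 8 hepatocyte markers. The gene Alb itself, encoding albumin, was not called in any comparison.

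**Figure D4:**
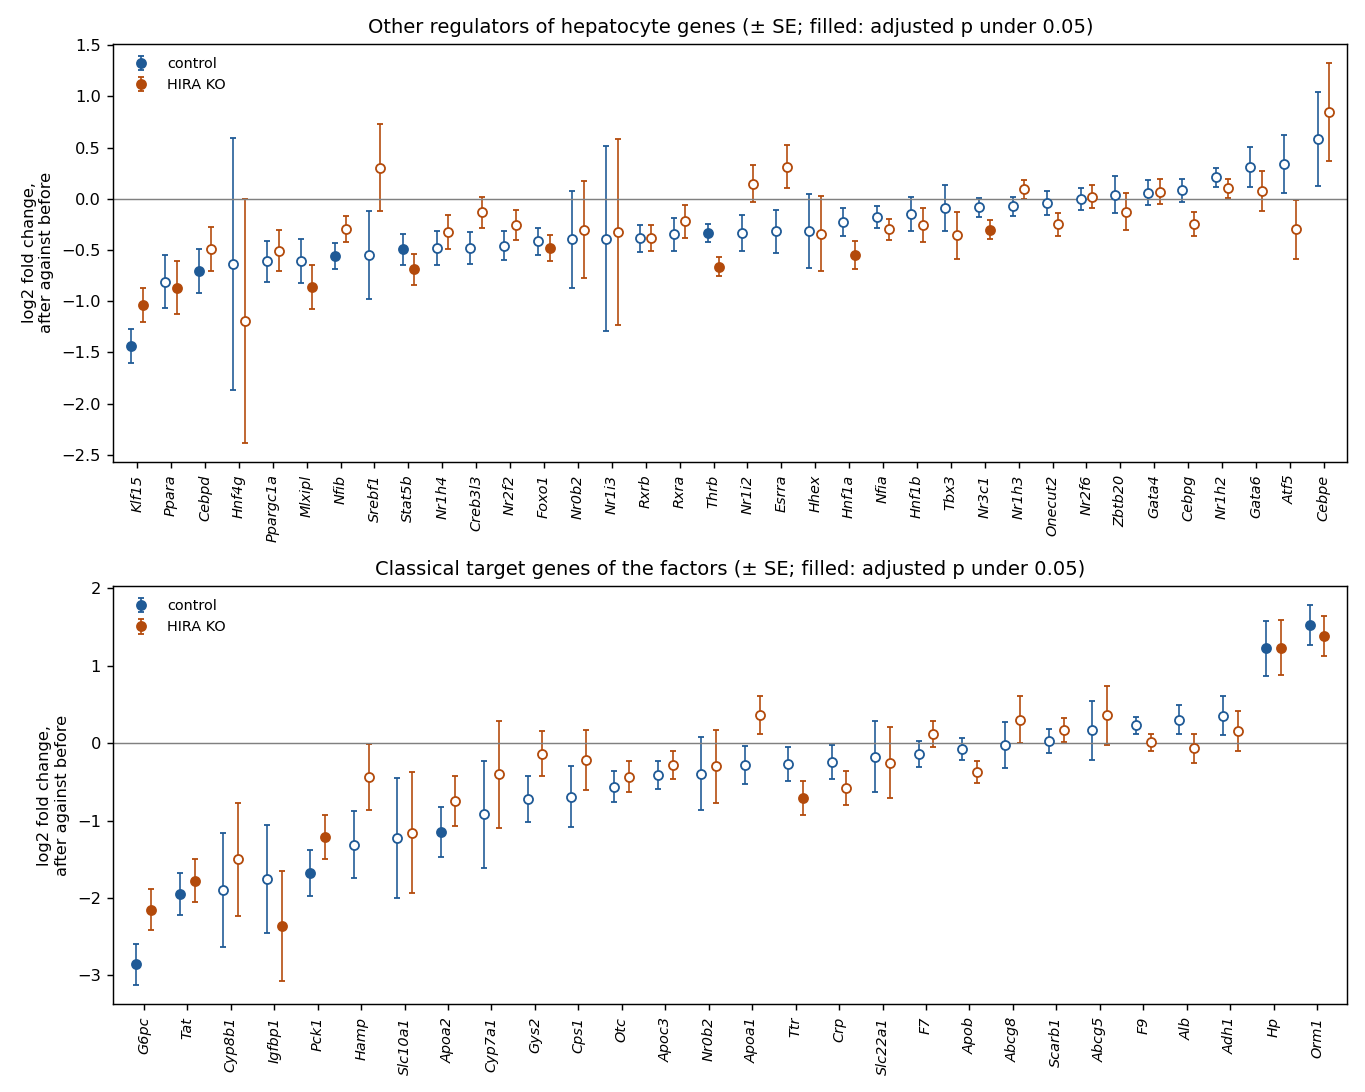
Log2 fold change ± SE, after against before regeneration, of 36 other regulators (top) and 28 target genes (bottom), each gene in control (blue) and in HIRA KO (orange). Filled points passed edgeR's test. Klf15 among the regulators and G6pc and Tat among the targets are low in both genotypes, and Orm1 and Hp the highest targets.

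The genes whose pattern over the 16 libraries was most like that of each factor were taken from 13176 genes by Pearson's r of log2(CPM + 1), as a description. Cebpa was most like Oit3 (r = 0.95), Sephs2 (0.94) and Cyp2d22 (0.94). Nr5a2 was most like Rbl2 (0.93), Luc7l2 (0.92) and Ammecr1l (0.92), and Hnf4a most like Gm6652 (0.93), Sord (0.92) and Cldn12 (0.92). Prox1 was most like Fes (0.92), Cyp4f18 (0.91) and Gab2 (0.89). For Foxa1 these were Ss18l1 (0.91), Ube2q2 (0.88) and Fnbp4 (0.85), for Foxa2 Ppp4r3a (0.80), Arhgef26 (0.76) and Dcun1d2 (0.76), and for Foxa3 Tomm20 (0.85), Ccdc181 (0.81) and Mospd1 (0.80). Cebpb was most like Tsc22d3 (0.87), Mzt2 (0.83) and 1600012H06Rik (0.83), and Onecut1 most like Socs2 (0.83), Cish (0.83) and Cbwd1 (0.77). The libraries share groups and depth, and of these 27 genes 12 were also among the 3 most alike in FPKM.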

How the data were processed

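PolyA RNA of whole mouse liver was sequenced with a directional library kit. Per the methods of the study, the authors aligned reads to mm10 with STAR and counted reads per gene with HOMER, and the submitters' processing notes list STAR, HTSeq and Cufflinks, so which tool made which table is not certain. The authors deposited whole-number read counts per gene and, separately, FPKM for the same 16 libraries. Columns name group and a running number only, so each was used as a replicate of its group. The study describes separate mice within a group, from both deletion approaches, and takes tissue before and after regeneration from the same mice. Which column belongs to which mouse or approach is not given, so no approach term was fitted. Whether the column number pairs libraries was checked by the correlation of their deviations from the group means over 13176 genes. In HIRA KO pairs of the same number had r from 0.386 to 0.587, but this was not particular to the number throughout. Number 3 before regeneration correlated more with another number after it (0.516 against 0.463), and number 2 nearly as much (0.378 against 0.386). In control r was 0.0805 to 0.377, and each number correlated best with itself. The check thus does not settle whether a number marks the same mouse, and blocked values are given as an alternative where they change a call.

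Genes with at least 10 counts in total (23018) were fitted with TMM scaling and 4 group means in edgeR 4.0.16 (R 4.3.3). Its quasi-likelihood test, robust, gave p-values that were adjusted by Benjamini-Hochberg and called under 0.05. Standard errors were taken from the fold change and F, as the size of the first over the root of the second. CPM use TMM-scaled library sizes. Depth was 15103059 to 21738619 counts, and the 9 factors had 41 to 13473 counts per library. Alternatives were DESeq2 1.42.0, median-of-ratios scaling, filterByExpr, no count filter, only the groups compared, limma 3.58.1 on log2(FPKM + 1), each library left out, and, chosen after seeing the data, the fit without 4 HIRA KO libraries and the fit with the column number as a replicate block within genotype. Fits were tested on simulated counts. Coordinates and gene types are from GENCODE M21 (54673 of 55421 IDs matched). Promoters are from RefSeq.

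The factors and lists were chosen with earlier results of these data known. Of each list of regulators and targets the text names the called genes, at most the 5 with the largest change in each direction, and for likeness the 3 closest genes with a mean CPM of at least 1.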

Additional observations from a re-analysis of the deposited data

Results flagged for a closer look

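In 36 groups of 4 libraries (9 factors in 4 groups), the gap between the extreme library and its neighbour exceeded Dixon's 95% limit for its share of the range in 1. This was Foxa1 in HIRA KO after regeneration, where library 4 measured 21.1 CPM and the other 3 between 10.4 and 12.2 CPM, a gap of 0.834 of the range. By chance about 1 in 20 groups would be expected to do so.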

How the results depend on the processing

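Of 738 values of single factors under another setting, 671 kept their direction and their side of the threshold, 20 kept the direction but lost the call, 8 gained one and 39 changed sign. The fall of Cebpa in control was called under all settings, the replicate block included. For HIRA KO against control before regeneration, DESeq2 called 1 factor and 1 target gene. After regeneration 0 factors were called with median-of-ratios scaling, 0 with no count filter and 0 with only the groups compared. With limma on FPKM 0 were called, and without the 4 libraries apart 0. In the order given, these settings called 85, 117, 0, 61 and 19 of all genes, so no gene was called with only the groups compared. Other regulators called after regeneration were 5 with DESeq2, 2 with filterByExpr (228 of all genes) and 1 with no count filter, and target genes 3 with DESeq2. With 1 library left out, the factors called were 0 to 1, the regulators 0 to 2 and the targets 0 to 1.

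For regeneration in control, 2 factors were called with DESeq2, 2 with only the groups compared and 2 without the 4 libraries. With a library left out 1 to 2 were called. In the order given, 3282, 3167, 3784 and 1519 to 2324 of all genes were called in control. There filterByExpr called 2733 genes and limma on FPKM 1885. Other regulators called were 13 with DESeq2, 11 with filterByExpr, 12 with only the groups compared, 3 with limma on FPKM, 12 without the 4 libraries, and 2 to 6 with a library left out, and target genes 10 with DESeq2. In HIRA KO 0 factors were called with no count filter, with only the groups compared, with limma on FPKM or without the 4 libraries. With a library left out 0 to 3 were called. In the order given, 2197, 1340, 2558, 2195 and 1636 to 2784 of all genes were called in HIRA KO. Other regulators called were 3 with only the groups compared, 3 with limma on FPKM and 4 to 9 with a library left out, and target genes were 4 with only the groups compared and 4 to 6 with a library left out. Over all genes, HIRA KO against control called 9 before and 113 after regeneration by edgeR, 375 and 910 by DESeq2, 5 and 19 without the 4 libraries, and 1 to 26 and 5 to 503 with a library left out. Fewer samples entered the fits that left libraries out, and the cause of the other differences was not tested.

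Without the 4 libraries the log2 fold change between HIRA KO and control changed sign before regeneration for Hnf4a (0.063), Foxa1 (0.0040), Cebpa (0.050) and Cebpb (0.22), and after it for Hnf4a (0.063) and Prox1 (-0.14). With limma on FPKM it did so for Prox1 before (0.039) and Onecut1 after (0.038), as did regeneration of Foxa3 in control (0.036) and the difference between times for Hnf4a (-0.029). Leaving out 1 library, HIRA KO against control before regeneration ranged from -0.16 to 0.11 for Foxa1, -0.082 to 0.47 for Foxa2, -0.38 to 0.048 for Cebpb, -0.048 to 1.09 for Onecut1 and -0.20 to 0.21 for Prox1, and after it from -0.29 to 0.014 for Hnf4a and -0.39 to 0.34 for Onecut1. Regeneration ranged in control from -0.27 to 0.053 for Foxa3, -0.47 to 0.39 for Onecut1 and -0.10 to 0.31 for Prox1, and in HIRA KO from -0.26 to 0.044 for Hnf4a and -0.47 to 0.091 for Foxa2. The difference between times ranged from -0.13 to 0.18 for Hnf4a and -0.16 to 0.0095 for Nr5a2. None of these passed the test in the main setting. Of the 27 genes most like a factor, 12 stayed among the closest with log2(FPKM + 1).

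The columns cannot be tied to the replicate numbers of the labels or to the deletion approach, so the fits with those terms were not run. With the column number as a replicate block instead, which cannot estimate HIRA KO against control, the factors called in HIRA KO were 4 and the target genes 12, and Hnf4aos fell by 1.37 there (adjusted p 0.0248). Counts of Hnf4aos in HIRA KO were low, at 1 to 38 per library. The block changed no other call of a factor. In control, where the same-number correlation was 0.0805 for number 3 and 0.201 to 0.377 for the others, each library before regeneration correlated best with the same number after it, a hint from the data. The block there called 1 factor, 11 other regulators and 10 target genes, and 3525 genes in all against 2350 without it, and it gained the call of Hnf4aos (adjusted p 0.0463) and lost that of Cebpd (0.0722). For the difference between times it called 0 factors and 9 genes in all, and Hnf4a changed sign (-0.012). At 4 libraries a group, factors with a wide spread such as Onecut1 carry standard errors of about 0.75 on the log2 scale.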

Other observations

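Among the 9 factors, Pearson's r of log2(CPM + 1) over the 16 libraries, given as a description, was lowest for Hnf4a and Prox1 (-0.79, and -0.79 after removing the group means). Prox1 was also low against Cebpb (-0.62, and -0.64 within groups) and Foxa2 (-0.61, and -0.69 within groups). The highest value was that of Foxa2 and Onecut1 (0.65, and 0.67 within groups). Nr5a2 and Foxa1 gave 0.64 over all libraries and 0.39 within groups, and Nr5a2 and Hnf4a 0.40 and 0.03. The libraries share scaling and depth, and the 4 HIRA KO libraries apart include the highest Prox1 and lowest Hnf4a.

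Of 8 cholangiocyte markers 1 (Spp1) rose with regeneration in control. None of the 4 lymphatic endothelial, 8 stellate and fibroblast or 3 tested pancreas markers was called by edgeR in any comparison. In HIRA KO against control before regeneration, edgeR called only 0.0391% of all genes. There all 8 stellate and fibroblast markers had log2 fold changes above 0, 6 of them at an unadjusted p under 0.05 by edgeR. Their median was 1.43, against 0.01 over all genes. The sums were high in HIRA KO libraries 1 and 2 (676 and 487 CPM) and lower in 3 and 4 (251 and 268 CPM).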
